A study of Homo sapiens with 5 samples.

Results

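The genes of oxidative phosphorylation (OXPHOS) were followed through the differentiation of WA09, a line of human embryonic stem cells, towards neurons that make gonadotropin-releasing hormone (GnRH). Members were chosen by symbol, as subunits of complexes I to V: all NDUFA, NDUFB, NDUFC, NDUFS, NDUFV, UQCR, ATP5F1, ATP5M and ATP5P genes, the COX4 to COX8 subunits, SDHA to SDHD, and the 13 coding genes of the mitochondrial genome. This gave 102 gene entries of the 37407 genes listed in either reference, namely 87 nuclear subunit genes, 13 mitochondrial genes and 2 read-through loci. Genes of the NDUFAF assembly group (8) and antisense or divergent transcripts (3) were left out. A filter of a mean of at least 10 CPM over the 8 libraries, where CPM is a gene's count of unique molecular identifiers (UMIs) scaled to a library total of 1e6, kept 78 of the 87 nuclear genes and all 13 mitochondrial genes, among 8563 genes in all. By complex, the nuclear genes kept were 37 of 37 for complex I, 4 of 4 for complex II, 8 of 9 for complex III, 12 of 19 for complex IV and 17 of 18 for complex V. Neither read-through locus passed: ATP5MF-PTCD1 reached at most 0.121 CPM and NDUFC2-KCTD14 at most 0.0143 CPM.

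OXPHOS is the process by which mitochondria turn electrons from nutrients into ATP. Complexes I to IV pass electrons to oxygen and, apart from complex II, pump protons across the inner membrane, and complex V uses the returning protons to make ATP. Subunits of complexes I, III, IV and V come from 2 genomes, that of the nucleus and that of the mitochondrion, whereas all of complex II is encoded in the nucleus. Neurons rely heavily on this process, and pluripotent cells are known for a strong use of glycolysis beside it.

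There were 8 conditions with 1 library each and no replicates. D0 was undifferentiated WA09. D5_dSMADi and D10_dSMADi received dual SMAD inhibition (dorsomorphin and SB431542, which block bone morphogenetic protein and activin signalling) for 5 and 10 days. D5_XAV939 and D10_XAV939 received the same inhibitors with 10 µM XAV939, a tankyrase inhibitor that lowers Wnt signalling. D22, D24 and D26 followed inhibition without XAV939, then FGF8, and from day 21 the Notch pathway inhibitor DAPT, in cultures that passed through frozen storage at day 17. All came from 1 line, so nothing here measures the spread between lines or between cultures.

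The 5 early libraries were tagged and pooled in 1 droplet run, while D22, D24 and D26 were separate runs counted with an older reference. For D0 to D10, library here means the cells assigned to 1 tag of that pool. Levels of D22 to D26 therefore stand beside those of D0 to D10 without a comparison between them. D22, D24 and D26 are compared with each other, but each is its own run, so day and run cannot be told apart in those steps. The cells kept numbered 1009 to 11056 per library, with 58073098 to 130440502 UMIs in total and a median of 7180 to 69455 UMIs per cell. No barcode was shared among the 5 tagged libraries, and other pairs shared at most 37. Pluripotency genes summed to 4437 CPM at D0 and 6.13 CPM at D26, early neuron genes to 9425 CPM at D26, and endodermal and mesenchymal markers to at most 6.64 and 14.9 CPM in any library. Neural crest or glial markers summed to at most 305 CPM, in D10_dSMADi.

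Without replicates no comparison between conditions was tested. Each level is given with an exact 95% Poisson interval, and each ratio with an exact binomial interval for the split of its UMIs. Both cover counting error only. A gene was called higher or lower, and is said to have risen or fallen, when 2 libraries differed by at least 1.5-fold. Its share among all 8563 genes is the background. CPM is a share of a library, so a gene's CPM also moves when other genes take more or less of the UMIs. In sums over a whole library, a change in the mix of cells and a change within cells cannot be told apart. UMIs mark 3′ ends and were not scaled by length, so a share of UMIs between genes, as given for paralogues and for the 2 genomes, is a share of molecules counted and not of transcript per length.

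Sequence upstream of 4 members is shown because the c-subunit genes of complex V moved in opposite directions early on, and because the complex II median lay opposite to those of complexes I, IV and V late. ATP5MC3, also a c-subunit gene, was not matched to a promoter, so its sequence is not shown. The letters come from RefSeq (GRCh38.p14), are the longest stretch free of annotated exons within 250 bases before the start given by RefSeq, and read 5′ to 3′ on the gene's strand. Capitals mark matches to the letters searched on both strands, which were GCGCANGCG for NRF1, CCGGAAG for ETS factors, AAGATGGC for YY1 and GGGGCGGG for SP1. NRF1, the ETS factor GABP and YY1 are known regulators of OXPHOS genes. The stretch of ATP5MC1 lies at chr17:48892678-48892764 on the plus strand and that of ATP5MC2 at chr12:53676084-53676175 on the minus strand. The latter lies inside the longer GENCODE span of ATP5MC2 printed with its values, since the RefSeq start used differs from the start of that span. The stretch of SDHA lies at chr5:218154-218297 on the plus strand and that of SDHB at chr1:17054033-17054282 on the minus strand.
ATP5MC1: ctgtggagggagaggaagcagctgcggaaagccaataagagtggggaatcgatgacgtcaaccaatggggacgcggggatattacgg
ATP5MC2: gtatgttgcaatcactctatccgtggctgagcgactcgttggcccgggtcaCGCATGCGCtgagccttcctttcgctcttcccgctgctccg
SDHA: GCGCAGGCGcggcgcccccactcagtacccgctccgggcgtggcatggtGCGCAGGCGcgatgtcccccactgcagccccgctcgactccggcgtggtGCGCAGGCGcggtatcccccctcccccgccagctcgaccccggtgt
SDHB: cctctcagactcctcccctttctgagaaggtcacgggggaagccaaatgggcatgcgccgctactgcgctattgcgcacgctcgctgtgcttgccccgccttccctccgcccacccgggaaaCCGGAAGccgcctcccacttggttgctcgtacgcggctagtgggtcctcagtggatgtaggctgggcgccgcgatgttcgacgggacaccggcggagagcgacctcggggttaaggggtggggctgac

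The SDHA stretch held 3 matches for NRF1, the ATP5MC2 stretch held 1 for NRF1, the SDHB stretch held 1 for ETS factors, and the ATP5MC1 stretch held none of the 4. Over the whole windows, from 250 bases before to 50 after the start, 69 of the 87 nuclear members had a promoter in the table. NRF1 letters were in 23 of them (33.3%) and in 8.05% of all 27305 promoters. ETS letters were in 20 members (29%, against 10.7% of all) and YY1 letters in 11 (15.9%, against 3.03%). SP1 letters were in 12 members (17.4%), below their 22.7% among all promoters. A match describes the letters only and says nothing of binding.

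The summed share of UMIs on OXPHOS genes ran differently for the 2 genomes. The 13 mitochondrial genes took 2.94% of the UMIs at D0, 1.885% in D5_dSMADi and 2.63% in D10_dSMADi, and then 3.34%, 4.13% and 4.45% at D22, D24 and D26. The nuclear genes took 2.76%, 2.20% and 2.47% in the 3 early libraries and 2.78%, 3.34% and 2.79% in the 3 late ones. Both sums were thus lowest at D5 among the tagged libraries, and only the nuclear sum was highest at D24 among the late libraries. Mitochondrial UMIs per nuclear OXPHOS UMI stood at 1.06 at D0, 0.857 in D5_dSMADi and 1.06 in D10_dSMADi, and at 1.20, 1.24 and 1.60 at D22, D24 and D26. The cytoplasmic ribosomal protein genes, which take many more UMIs, moved the other way at several steps. Their sum was 227944 CPM at D0, 323856 in D5_dSMADi, 241310 in D10_dSMADi, 251624 at D22, 199413 at D24 and 145830 at D26. Their part in the OXPHOS shares was not tested.

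**Figure D1:**
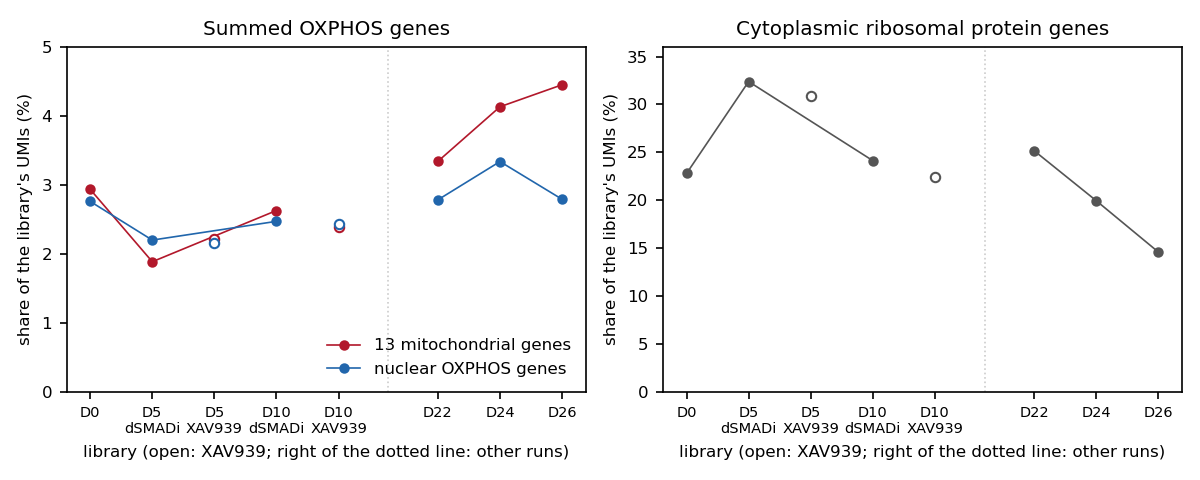
Share of each library's UMIs (%) on the 13 mitochondrial and the nuclear OXPHOS genes (left) and on cytoplasmic ribosomal protein genes (right), with 1 point per library, open points for XAV939, and a dotted line between the tagged run and the separate late runs. Among the tagged libraries the mitochondrial share is lowest in D5_dSMADi (1.885%), and among the late ones it is highest at D26 (4.45%) and the nuclear share at D24 (3.34%).

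From D0 to D5 of dual SMAD inhibition, OXPHOS genes of both genomes stood lower. Of the 78 nuclear genes, 22 (28.2%) fell and 1 (1.28%) rose, where 24% of all genes fell and 19.5% rose. The share that fell was therefore near the background, and the share that rose was well below it. The nuclear median was -0.38 on the log2 scale against -0.05 over all genes, a difference of -0.33. A scaling shifts all genes of a library alike, so it cannot change this difference. Against genes with a mean of at least 100 CPM the difference was -0.26. Of the mitochondrial genes, 9 of 13 fell and none rose, all 13 stood below 0, and their sum gave a log2 ratio of -0.64. TMM factors left 4 mitochondrial falls, where 19.6% of all genes fell. A total without mitochondrial and ribosomal protein genes left 4 mitochondrial and 10 nuclear falls, where 18.5% of all genes fell and 26.7% rose. The nuclear share that fell was then below the background.

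The c subunit of complex V forms the ring that turns as protons pass, and 3 genes, ATP5MC1, ATP5MC2 and ATP5MC3, encode an identical mature protein with different import sequences. ATP5MC1 (ENSG00000159199, chr17:48892765-48895871) had 293.5 CPM at D0, 73.1 in D5_dSMADi and 75.3 in D5_XAV939. It then had 149.9 CPM in D10_dSMADi and 136 in D10_XAV939. The D0 library lay highest and both D5 libraries lowest, and the D5 to D0 log2 ratio of -2.01 (95% interval -2.05 to -1.96) was the lowest of the 78. ATP5MC2 (ENSG00000135390, chr12:53632726-53677408) had 622 CPM at D0 and 1023 to 1084 CPM in the other 4 tagged libraries. It was the 1 nuclear member that rose, with a log2 ratio of 0.80. ATP5MC1 thus made up 32.1% of the UMIs of ATP5MC1 and ATP5MC2 together at D0, 6.32% in D5_dSMADi and 12.7% in D10_dSMADi. ATP5MC3 (ENSG00000154518, chr2:175176258-175181710) had 691 CPM at D0, 392 in D5_dSMADi and 557 in D10_dSMADi, so its order over these 3 libraries was that of ATP5MC1.

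**Figure D2:**
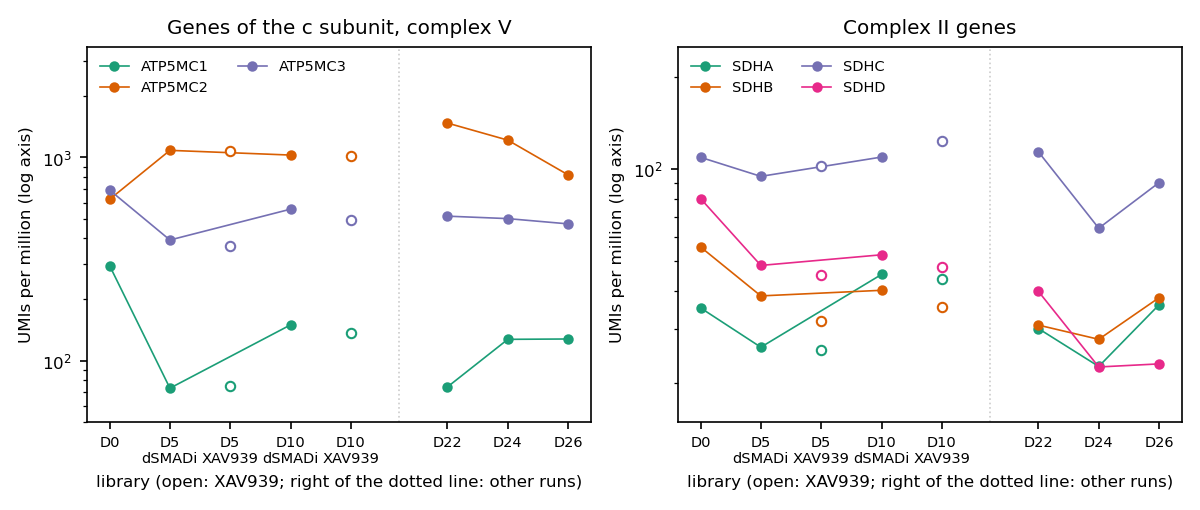
Levels (CPM, log axes) of the 3 c-subunit genes (left) and of the 4 complex II genes (right), with 1 point per library and open points for XAV939. ATP5MC1 drops from 293.5 to 73.1 CPM between D0 and D5_dSMADi while ATP5MC2 goes from 622 to 1084 CPM, and the 4 complex II genes lie lower at D24 than at D22.

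The lowest ratios after ATP5MC1 lay in other complexes. UQCRC1, a core subunit of complex III, had 118 CPM at D0 and 46.5 in D5_dSMADi (log2 ratio -1.35). NDUFS6, a complex I subunit of the electron-input arm, had 485 and 216.9 CPM (-1.16). COX5A, a complex IV subunit, had 510.0 and 240.5 CPM (-1.08). By complex, 12 of 37 genes fell in complex I, 1 of 4 in complex II, 2 of 8 in complex III, 3 of 12 in complex IV and 4 of 17 in complex V, with medians between -0.30 and -0.48. These shares lay near the 24% of all genes. The highest ratios after ATP5MC2 were below 1.5-fold: COX7A2L, which helps join complexes III and IV, had 171.5 and 230.0 CPM (0.42), NDUFS4 had a ratio of 0.35 and ATP5MPL of 0.30.

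Among the mitochondrial genes the size of the step differed. MT-ATP6 (chrM:8527-9207), a proton-channel subunit of complex V, had 3227 CPM at D0 and 1506 in D5_dSMADi (-1.10). MT-ND5, MT-ND4 and MT-CO3 followed with -0.88, -0.87 and -0.84. MT-CO1 (chrM:5904-7445), the catalytic subunit of complex IV, had 3921 and 3681 CPM (-0.09). MT-ND6 (chrM:14149-14673), the only one of the 13 read from the other strand, had 67.9 and 66.3 CPM, with an interval that spans 0. The 4 that did not fall by 1.5-fold were MT-CO1, MT-ND6, MT-ND4L (-0.23) and MT-ND3 (-0.41).

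Genes around the complexes, taken as lists by function, gave these counts between D0 and D5, where 24% of all genes fell and 19.5% rose. Several were thus near the background. Complex I assembly factors fell in 9 of 14 and rose in 1 (median -0.83). Assembly factors of the other complexes fell in 0 of 4 for complex II, 1 of 6 for complex III, 6 of 22 for complex IV and 1 of 3 for complex V, with 1 rise in complex IV. CYCS, the mobile carrier cytochrome c, and CYC1, cytochrome c1, a subunit of complex III whose symbol the rule for members does not include, both fell (median -1.16). The tricarboxylic acid cycle, which feeds electrons to complexes I and II, had 5 of 14 lower, among them IDH3A (-1.83) and MDH2 (-0.87). The mitochondrial ribosome, which translates the 13 mitochondrial mRNAs, had 31 of 77 lower and 1 higher. Of 10 genes of mitochondrial DNA upkeep and transcription, 3 fell, SSBP1 (-1.02), SLIRP (-0.99) and LRPPRC (-0.71), and MTERF1 rose (0.87). Of 5 nuclear regulators of OXPHOS genes, 1 fell.

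Cells at D0 held far more UMIs than at D5, with medians of 69455 and 28789. Within D5_dSMADi the nuclear share was 2.47% of UMIs in the fifth of cells with the fewest UMIs and 2.08% in the fifth with the most, and at D0 it was 2.89% and 2.62%. Cells of the tagged libraries were also kept by the same limits, chosen after the data were seen. With these limits 25 nuclear genes were lower and 1 higher, where 22.9% of all genes were lower and 20.6% higher. The nuclear median was then -0.43, against -0.01 over all genes. The list of ATF4 and its stress targets, another sign of cell state, fell in 4 of 5 genes and rose in none. Their part in the OXPHOS values was not tested.

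From D5 to D10 under dual SMAD inhibition, the nuclear genes moved with the bulk of genes and the mitochondrial genes stood further up. Only 2 of 78 nuclear genes (2.56%) rose and none fell, where 14.2% of all genes rose and 3.21% fell (8.20% and 2.45% of those with a mean of at least 100 CPM). The nuclear median of 0.17 lay beside 0.18 over all genes. All 13 mitochondrial genes stood above 0, with 3 rises and a log2 ratio of 0.48 for their sum. ATP5MC1 rose from 73.1 to 149.9 CPM (1.04), to a level below that of D0. SDHA, the flavin-bearing subunit of complex II, rose from 26.2 to 45.3 CPM (0.79). Next, below 1.5-fold, were NDUFB3 with 124.4 and 184 CPM (0.57) and NDUFB8 with 156.5 and 229 CPM (0.55), both of the membrane arm of complex I. UQCRH, at -0.32, had the lowest ratio, and UQCRB (-0.18) and COX7A2L (-0.17) were also low. MT-ATP8 had 43.3 and 83.3 CPM (0.94), MT-ATP6 1506 and 2526 CPM (0.75), and MT-ND6 66.3 and 106.8 CPM (0.69).

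The MT-ATP8 and MT-ATP6 reading frames overlap and share 1 transcript, as do MT-ND4L and MT-ND4, so reads of each pair may not be separable. Part of the step from D5 to D10 depended on the scaling. With TMM factors or the median of ratios, the median of all genes moved by -0.23 and -0.25, and the rises among all genes past 1.5-fold went from 81.5% to 51.6% and 49%. The nuclear medians were then -0.06 and -0.08, and the mitochondrial sums 0.25 and 0.23. Of the nuclear genes only ATP5MC1 stayed past 1.5-fold, so that the rise of SDHA was lost, where 7.72% and 7.39% of all genes rose. With these scalings the nuclear direction flipped and that of the mitochondrial sum held. Where 14.2% of all genes rose, complex I assembly factors rose in 5 of 14 genes, the mitochondrial ribosome in 5 of 77, complex IV assembly factors in 0 of 22, the tricarboxylic acid cycle in 1 of 14 and mitochondrial DNA upkeep and transcription in 0 of 10. ATF4 and its stress targets rose in 5 of 5 genes (median 2.09), and 2 of 6 dissociation stress genes rose, ATF3 (2.94) and JUN (1.06). Their part in the OXPHOS values was not tested. The XAV939 libraries gave a nuclear median of 0.21 from D5 to D10 (0.16 over all genes), with a mitochondrial sum of 0.11.

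None of the 78 nuclear OXPHOS genes with a mean of at least 10 CPM differed by 1.5-fold with XAV939 at either day. At D5, 0 of 78 genes rose or fell, where 3.83% of all genes rose and 1.97% fell (1.78% and 1.39% of those with a mean of at least 100 CPM). At D10 the count was again 0 of 78, against 4.93% and 2.94% (3.37% and 2.12%). The nuclear medians were -0.03 and -0.01, beside 0.05 and 0.03 over all genes. The nuclear extremes at D5 were NDUFA9, a complex I subunit, with 36.6 CPM with XAV939 and 46.2 without (-0.34), and NDUFB1 at 0.18. NDUFA7 (-0.21) and NDUFC1 (-0.20) also stood low at D5, and NDUFS6 (0.17), NDUFA6 (0.16) and ATP5F1D (0.12) high. SDHB, the iron-sulphur subunit of complex II, stood at 31.9 with and 38.6 without XAV939 at D5 (-0.27) and at 35.6 and 40.2 at D10 (-0.18). At D10 the extremes were NDUFB8 with 194.8 and 229 CPM (-0.24), and UQCRC1 with 79.35 and 65.6 CPM (0.27). NDUFA11 at D10 also stood at 0.27, ATP5F1A, the catalytic-head alpha subunit of complex V, at 0.21, and NDUFA6 at 0.20, while NDUFV3 stood at -0.21 and ATP5MC3 at -0.18. Below the filter, NDUFA4L2 had 11 UMIs (0.127 CPM) with and 40 (0.502 CPM) without XAV939 at D5, and 63 (1.085 CPM) and 53 (0.673 CPM) at D10. The nuclear ratios ran from -0.34 to 0.18 at D5 and from -0.24 to 0.27 at D10.

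The mitochondrial genes stood on opposite sides at the 2 days. At D5 all 13 were higher with XAV939, from 0.07 for MT-ND2 to 0.32 for MT-ATP6, and their sum gave 0.23. At D10 all 13 were lower, from -0.19 for MT-CYB to -0.03, with a sum of -0.14. MT-ATP6 had 1876 CPM with XAV939 and 1506 without at D5, and 2317.5 and 2526 CPM at D10. MT-CO1 had 4448 and 3681 CPM at D5, and 4417 and 4816 CPM at D10. None passed 1.5-fold. The libraries without XAV939 are also those of the comparisons between days, so D5_dSMADi enters 3 of the comparisons. Of the surrounding lists, the 10 of mitochondrial function had no gene past 1.5-fold at either day, and the list of ATF4 and its targets rose in 3 of 5 genes at D10. Of the dissociation stress genes, JUN was higher with XAV939 at D5 (0.90), and at D10 ATF3 was higher (0.94) and FOS lower (-1.05). Their part in the mitochondrial values was not tested.

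**Figure D3:**
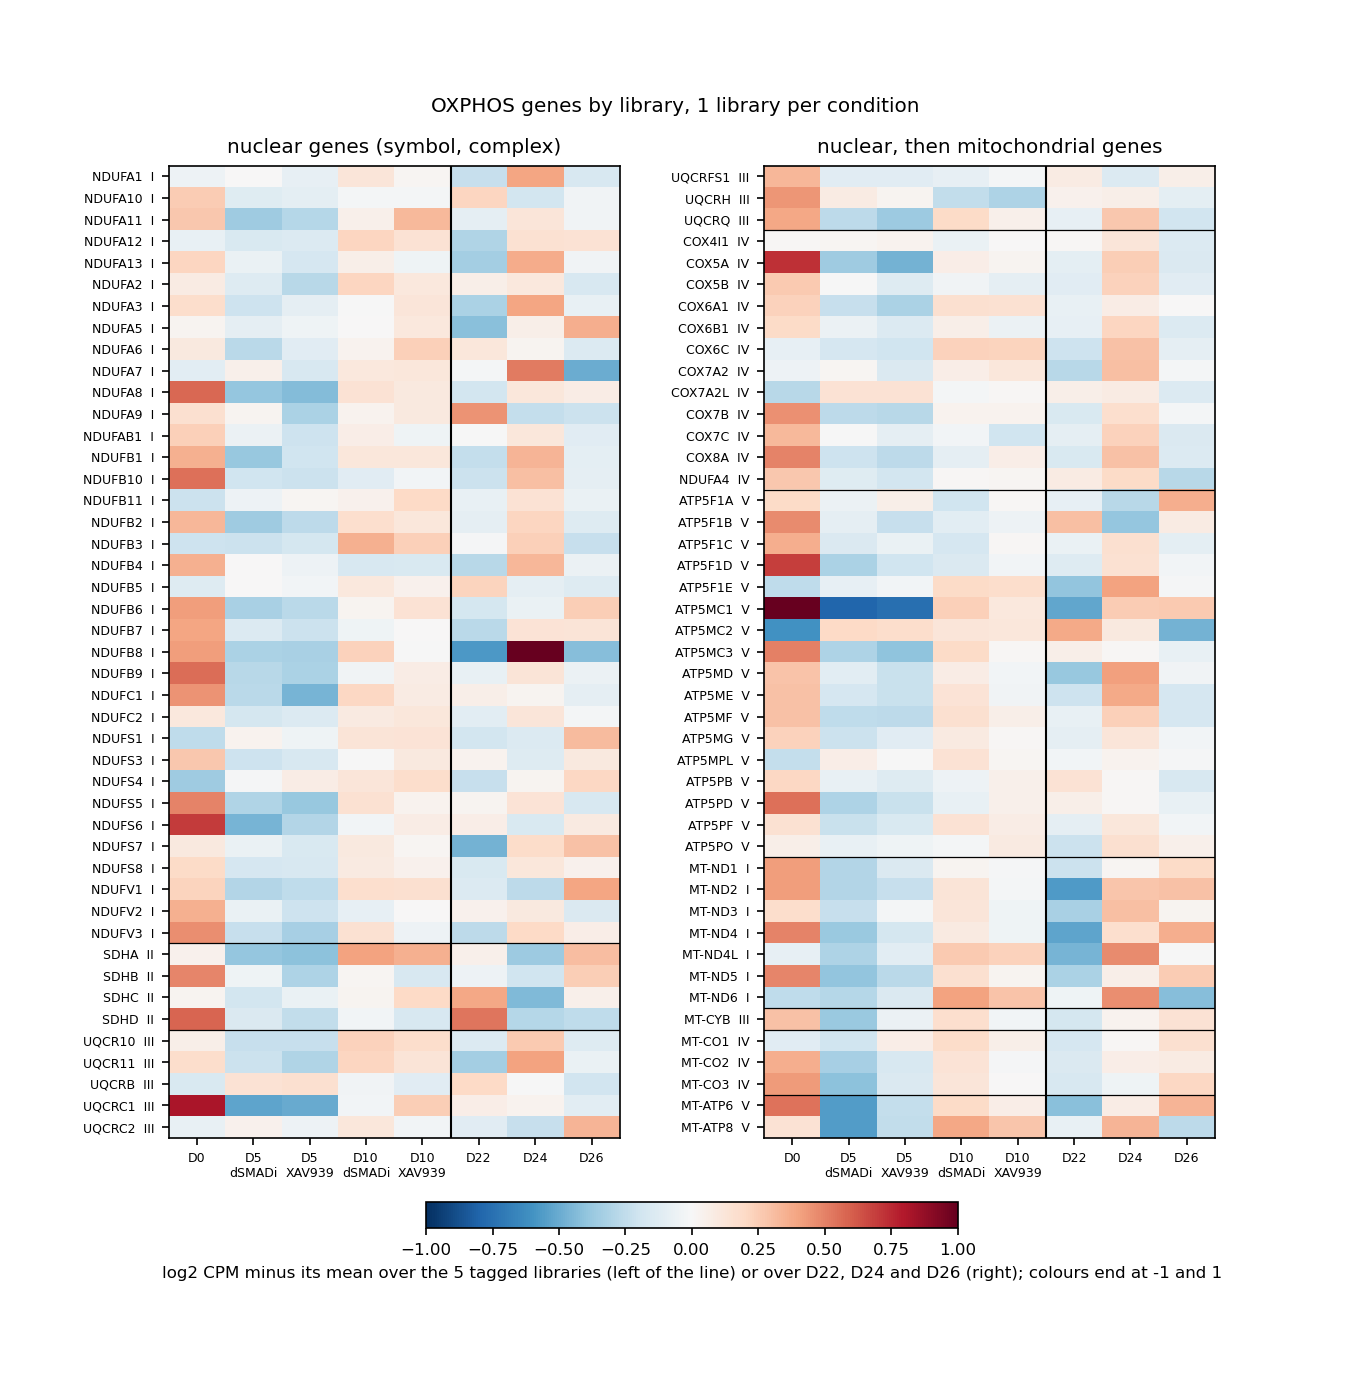
Level of nuclear genes with a mean of at least 10 CPM and of the 13 mitochondrial genes in each library, as log2 CPM minus the gene's mean over the 5 tagged libraries (left of the vertical line) or over D22, D24 and D26 (right), with the complex beside each symbol and colours ending at -1 and 1. D0 is the highest tagged library for many genes, with ATP5MC2 as an exception, and NDUFB8 stands out at D24.

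From D22 to D24, nuclear OXPHOS genes stood higher while the median gene stood lower. Of 78 nuclear genes, 11 (14.1%) rose and 4 (5.13%) fell, against 14.7% and 26.4% of all genes. The median of ratios gave 18 rises and 2 falls, where 18.3% of all genes rose and 21.6% fell. The total without mitochondrial and ribosomal protein genes gave 7 rises and 4 falls, where 12.7% of all genes rose and 30.2% fell. With CPM the share that rose was near the background, and with each scaling the share that fell was below it. The nuclear median was 0.22 against -0.15 over all genes, a difference of 0.37, which a scaling of whole libraries cannot change. Against genes with a mean of at least 100 CPM it was 0.33. All 13 mitochondrial genes stood above 0 and 4 rose, with a sum of 0.31. From D24 to D26 the nuclear genes reversed: 3 (3.85%) rose and 2 (2.56%) fell, where 25.6% of all genes rose and 7.37% fell, and the median was -0.17 against 0.30. Of the 78, 69 had a mean of at least 100 CPM, and among all genes at that level 12.4% rose, with a median of 0.06, so that the difference of the medians was -0.23 in place of -0.47. Of the 78 nuclear genes, 49 (62.8%) stood higher at D24 than at both other days, as did 11.2% of all genes. Past 1.5-fold over both days there was 1 nuclear member, NDUFB8 (1.28%), and 1.17% of all genes. Cells at D24 held the fewest UMIs, with medians of 12179, 7180 and 8485 at D22, D24 and D26. The median nuclear share at D22 was 2.95% in the fifth of cells with the fewest UMIs and 2.66% in that with the most. At D24 it was 3.45% and 3.24%, and at D26 2.68% and 2.72%. The part of depth in the D24 values was not tested.

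NDUFB8 (ENSG00000166136, chr10:100523740-100530000), an accessory subunit in the membrane arm of complex I, had 293.8 CPM at D22, 869 at D24 and 326 at D26. D24 lay apart from the other days, with log2 ratios of 1.57 for D24 over D22 and -1.42 for D26 over D24, the outermost in both steps. ATP5F1E, the epsilon subunit of complex V, had 1261 CPM at D22, 2183 at D24 and 1643 at D26. ATP5MD, a small membrane subunit of complex V, had 344, 597 and 438.5 CPM. Both rose by 0.79 from D22 to D24. ATP5MC1 had 74.2, 127 and 127.7 CPM, a rise of 0.78 that was kept at D26, while ATP5MC2 had 1477, 1217 and 821 CPM. As a share of both genes, ATP5MC1 was 4.78%, 9.46% and 13.5%.

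**Figure D4:**
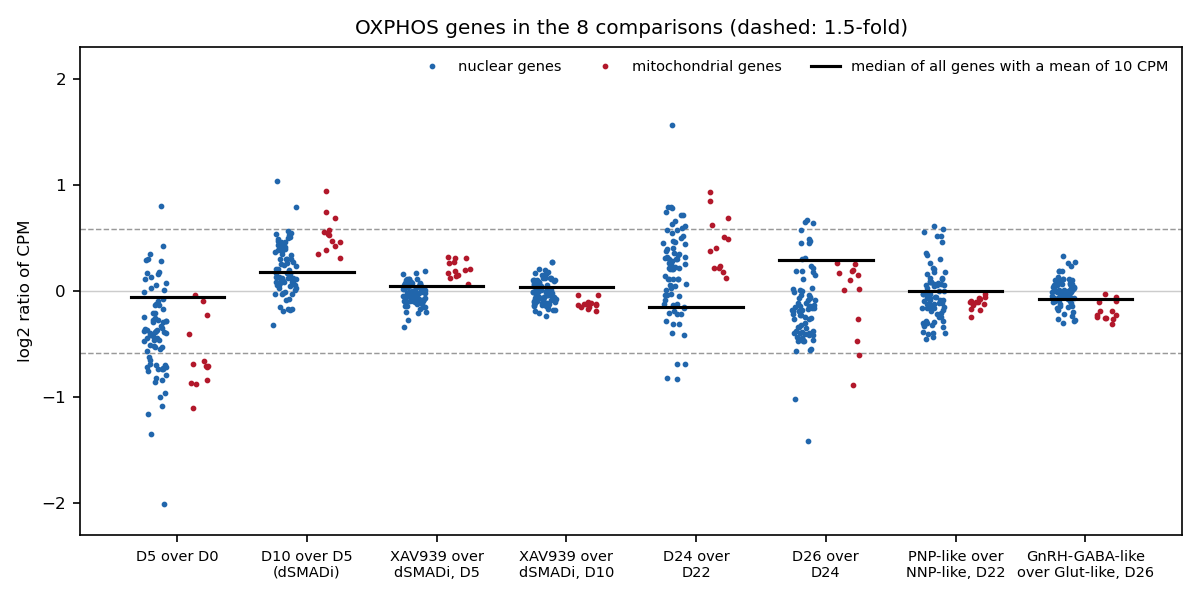
Log2 ratio of CPM of each nuclear (blue) and mitochondrial (red) OXPHOS gene in the 8 comparisons, with dashed lines at 1.5-fold and a black bar at the median of all genes with a mean of at least 10 CPM. The nuclear points lie mostly below the bar for D5 over D0 and D26 over D24 and above it for D24 over D22, and both XAV939 comparisons stay within 1.5-fold.

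Complex II stood on the side of the median of all genes in both late steps, opposite to the medians of complexes I, IV and V. All 4 of its genes stood lower at D24 than at D22 (median -0.61, 2 of them fell) and all 4 higher at D26 than at D24 (median 0.47). SDHC and SDHD (ENSG00000143252 and ENSG00000204370), which anchor the complex in the membrane, had 113.8, 64.1 and 90.3 CPM and 39.9, 22.6 and 23.15 CPM at D22, D24 and D26. SDHA had 30.2, 22.7 and 36.1 CPM, and SDHB 31.0, 27.8 and 38.1 CPM. D24 was thus the lowest day for each of the 4, though for SDHD D24 and D26 lay close together, and its ratio of 0.03 turns negative with TMM factors or the median of ratios. Of all 78 nuclear members, 14 were lowest at D24, as were 3785 of all 8563 genes, so this order is not particular to complex II. In Glut-like cells alone the complex II medians were -0.34 from D22 to D24, with 1 of 4 above 0 and no fall, and 0.46 from D24 to D26. Complex IV had 12 of 12 nuclear genes above 0 from D22 to D24 (median 0.32) and 0 of 12 from D24 to D26 (median -0.35), none of them past 1.5-fold. Complex I had medians of 0.22 and -0.14, complex III of -0.01 and -0.17, and complex V of 0.21 and -0.15.

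Other members that fell from D22 to D24 were NDUFA9, with 52.8 CPM and then 32.7 (-0.69), and ATP5F1B, the catalytic beta subunit of complex V, with 445 and 276 CPM (-0.69). From D24 to D26, NDUFA7, a complex I subunit, fell from 49.7 to 24.55 CPM (-1.02). The rises of that step were in SDHA (0.67), in NDUFV1, which holds the NADH site of complex I, from 44.2 to 69.5 CPM (0.65), and in ATP5F1A from 349 to 542 CPM (0.64). UQCRC2, a core subunit of complex III, followed with 111.9 and 166.6 CPM (0.57). ATP5MC2 (-0.57) and NDUFA1 (-0.56) came after NDUFB8 and NDUFA7 at the low end. The 3 rises were lost with TMM factors and with the median of ratios.

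The mitochondrial genes did not move as 1 group in these steps. MT-ND2 (chrM:4470-5511) had 1112.5 CPM at D22, 2004 at D24 and 2021 at D26, and MT-ND4 had 1784, 2878 and 3294. MT-ND4L rose by 0.94 from D22 to D24, from 143.5 to 274.7 CPM, and MT-ND3 by 0.63, whereas MT-CO3 differed by 0.12. From D24 to D26, MT-ND6 fell from 159 to 86.0 CPM (-0.89) and MT-ATP8 from 63.45 to 41.85 CPM (-0.60). MT-ND4L (-0.47) and MT-ND3 (-0.27) also stood lower, and the other 9 stood between 0.01 and 0.26, with a sum of 0.11.

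Scaling bore on these 2 steps. The median of ratios moved the median of all genes by 0.13 from D22 to D24 and TMM factors by 0.05. From D24 to D26 the shifts were -0.28 and -0.23, so that 39.7% and 47.4% of the genes past 1.5-fold were rises, in place of 77.6%. With these scalings 26 and 22 of the 78 nuclear OXPHOS genes fell in that step and none rose. Of all genes, 13% and 11.8% fell and 8.57% and 10.7% rose. The share of members that fell was thus above the background, whereas with CPM it was below it (2.56% against 7.37%). The mitochondrial sum turned to -0.18 and -0.13. Its sign in that step therefore depended on the scaling.

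The surrounding lists are read beside all genes, of which 14.7% rose and 26.4% fell from D22 to D24 and 25.6% rose and 7.37% fell from D24 to D26. From D22 to D24, 2 of 5 nuclear regulators fell, GABPA (-1.09) and PPRC1 (-0.78), and from D24 to D26 3 rose. The 10 genes of mitochondrial DNA upkeep and transcription had 2 falls and then 3 rises. With the median of ratios, none of the rises of either list from D24 to D26 stayed past 1.5-fold. The mitochondrial ribosome had 3 rises and 19 falls of 77 from D22 to D24, and 2 rises and no falls after. The tricarboxylic acid cycle had 1 rise and 3 falls of 14, then 3 rises and 1 fall. The assembly lists were mixed: complex I had 3 falls of 14 from D22 to D24, then 2 rises and 1 fall, and complex IV had 3 rises and 5 falls of 22, then 2 rises and 1 fall. The list of ATF4 and its targets rose in 3 of 5 genes from D22 to D24, with CHAC1 (2.04) and ASNS (1.86) ahead, and in none after. Of 6 dissociation stress genes, JUN rose (1.52) and FOS fell (-1.49) from D22 to D24, and 3 rose from D24 to D26. Their part in the OXPHOS values was not tested.

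D22 held other cells than D24 and D26. Clusters made without the OXPHOS genes were named from marker lists. Progenitors were named proliferating (PNP-like, 1672 cells at D22) or nonproliferating (NNP-like, 6166 cells at D22). The other names were glutamatergic neurons (Glut-like), GnRH and GABA neurons (GnRH-GABA-like) and IRX-like cells. Glut-like cells made up 7.79% of the cells at D22, 85.9% at D24 and 79.97% at D26. In PNP-like cells the PNP-like markers summed to 9628 CPM, and in GnRH-GABA-like cells of D26 their own markers summed to 18965 CPM. The names rest on these same lists, so these sums do not check them. The cluster with most Glut-like cells of D22 and D24 had 0 Glut-like markers among its 10 leading genes. Its score was 1.09 for the Glut-like list and -0.512 for the next list.

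NDUFB8 followed the class and the day. At D22 it stood at 197 CPM in PNP-like, 260 in NNP-like, 282 in IRX-like, 248 in GnRH-GABA-like and 945 in Glut-like cells. At D24 it stood at 920 CPM in Glut-like, 655 in IRX-like and 377 in GnRH-GABA-like cells. At D26 it stood at 329, 482 and 287 CPM in the same 3 classes. Glut-like cells were thus already high at D22 and low at D26. Within Glut-like cells alone, an alternative chosen after the data were seen, the log2 ratio of NDUFB8 was -0.04 from D22 to D24 and -1.48 from D24 to D26. Most Glut-like cells were of 1 cluster at D22 and D24 (717 and 7493 cells) and of another at D26 (8613 cells).

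**Figure D5:**
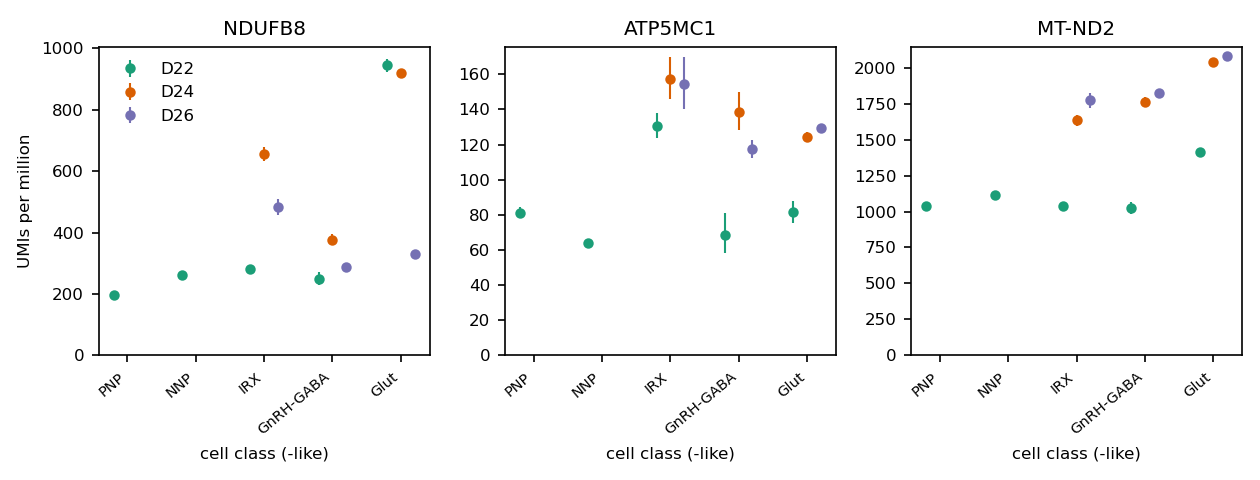
Levels (CPM) of NDUFB8, ATP5MC1 and MT-ND2 in the named cell classes at D22, D24 and D26, with exact 95% Poisson intervals (counting error only). NDUFB8 is near 945 and 920 CPM in Glut-like cells at D22 and D24 and 329 CPM at D26, while MT-ND2 is higher at D24 and D26 than at D22 in each class present at all 3 days.

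In Glut-like cells alone, the nuclear values of the first late step were smaller and the mitochondrial sum was larger. From D22 to D24, 3 nuclear genes rose and 2 fell, where 1.88% of all genes rose and 15.6% fell. The nuclear median was 0.12 against -0.20 over all genes, and all 13 mitochondrial genes stood above 0 with a sum of 0.45. The nuclear rises there were NDUFA13 (0.66), NDUFA7 (0.65) and ATP5MC1 (0.61), so ATP5F1E and ATP5MD did not pass 1.5-fold. The mitochondrial rises were MT-ND3 (0.94), MT-ND6 (0.76), MT-ATP8 (0.68) and MT-ATP6 (0.66), so MT-ND2, MT-ND4 and MT-ND4L did not pass it. SDHD changed sign in these cells, to 0.11. From D24 to D26, 3 nuclear genes rose and 2 fell, where 26.3% of all genes rose and 6.35% fell, with a median of -0.17 against 0.31 over all genes. Mitochondrial UMIs per nuclear OXPHOS UMI in Glut-like cells were 1.04, 1.25 and 1.65 at D22, D24 and D26. At D26 the same ratio was 1.42 in GnRH-GABA-like cells.

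Proliferating and nonproliferating progenitors at D22 differed in few OXPHOS genes. Of 78 nuclear genes, 2 (2.56%) were higher in PNP-like than in NNP-like cells and none lower, where 14.0% of all genes were higher and 9.18% lower. These were NDUFB6, of complex I (0.61), and COX8A, of complex IV (0.59). Both calls lay near the limit. TMM factors left 1 gene higher, where 13.8% of all genes were. The total without mitochondrial and ribosomal protein genes left 0, where 12.6% were. Without the 5% of cells with most UMIs 4 were higher, where 14.3% of all genes were. NDUFC1 (0.55) and SDHD (0.52) came next, and the lowest were COX7A2L (-0.45), NDUFA9 (-0.43), ATP5F1C (-0.41) and NDUFB8 (-0.40). All 13 mitochondrial genes stood lower in PNP-like cells, with a sum of -0.14 and none past 1.5-fold. PNP-like cells had 3.12% of their UMIs on mitochondrial and 2.64% on nuclear members, and NNP-like cells 3.45% and 2.82%. PNP-like cells held more UMIs (a median of 17399.5 against 11926), and 5 of 6 dissociation stress genes were higher in them. Their part in these values was not tested.

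GnRH-GABA-like and Glut-like cells at D26 were within 1.5-fold for every OXPHOS gene with a mean of at least 10 CPM. The count was 0 of 78 nuclear genes, where 4.25% of all genes were higher and 6.96% lower in GnRH-GABA-like cells (2.97% each among genes with a mean of at least 100 CPM). The nuclear shares were 2.81% and 2.785% of UMIs. SDHB stood highest in the GnRH-GABA-like cells (0.33), followed by ATP5F1E with 1926 CPM against 1589 (0.28), UQCRQ (0.26) and NDUFA4 (0.24). SDHC (-0.30), NDUFB4 (-0.28) and NDUFB9 (-0.26) were among the lowest. All 13 mitochondrial genes stood lower in GnRH-GABA-like cells, from -0.31 for MT-ND4 to -0.03 for MT-ND1, with a sum of -0.20 and shares of 4.00% and 4.59%. The level of MT-ND4 was 2774 CPM in the former and 3447 CPM in the latter. Of the dissociation stress genes, 3 of 6 were lower in GnRH-GABA-like cells. Their part in these values was not tested.

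The 9 nuclear members below 10 CPM are mostly tissue-specific copies of common subunits. COX7B2 had no UMI in any of the 8 libraries, which at a limit of 3 counts allows up to 0.023 to 0.0517 CPM, depending on the library. The muscle forms COX6A2 and COX7A1 had means of 0.0146 and 0.00976 CPM, and COX8C of 0.107 CPM. COX4I2, the lung form of COX4, had at most 15 UMIs in a library, whereas COX4I1 had 686 to 873 CPM. Under these cultures the common forms carried nearly all UMIs of each pair.

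Among these low members NDUFA4L2 and COX6B2 reached over 4 CPM in a late library. NDUFA4L2, a paralogue of the complex IV subunit NDUFA4 that is known to respond to low oxygen, had 134 UMIs (1.03 CPM) at D22, 184 (2.62 CPM) at D24 and 433 (4.35 CPM) at D26. As a share of the UMIs of both paralogues it was 0.0878% at D22 (exact binomial interval 0.0736 to 0.104%) and 0.475% at D26 (0.432 to 0.522%). In the tagged libraries this share was 0.0297% at D0, 0.0572% in D5_dSMADi, 0.0151% in D5_XAV939, 0.0699% in D10_dSMADi and 0.112% in D10_XAV939. COX6B2, the testis form of COX6B, had 1.265 CPM at D22, 4.86 at D24 and 1.58 at D26, with a D24 share of 0.719% beside COX6B1. UQCRHL had a mean of 5.70 CPM and ATP5MGL of 0.766 CPM. Both are near-identical copies of common members, so that their counts are uncertain.

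For 13 members, a read-through locus listed only in the older reference overlaps the gene on the same strand, and these loci had at most 21 UMIs in any library. Cell Ranger does not count reads that fit more than 1 gene. NDUFA7 had 168.0 to 202.5 CPM in the tagged libraries and 24.55 to 49.7 CPM in the late ones, and it is 1 of the 13, with NDUFA9, NDUFA13, NDUFB8 and SDHD among the others. NDUFA13 had 515.6 to 671 CPM in the tagged libraries and 198.1 to 324.6 CPM in the late ones. NDUFB8 lay the other way, with 155.6 to 260.5 and 293.8 to 869.4 CPM. NDUFA7 and NDUFA13 were among the nuclear rises from D22 to D24 in Glut-like cells alone. The steps from D22 to D26 share 1 reference. The part of the reference in the NDUFA7 and NDUFA13 levels was not tested.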

How the data were processed

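Single-cell RNA sequencing was performed by the authors with 10x Genomics 3′ chemistry. Reads were aligned to GRCh38 and UMIs were counted with Cell Ranger, whose version is 3.1.0 in the headers of D22, D24 and D26 and 6.1.2 in those of the tagged libraries (the submitters' processing notes name 3.1). The deposited values are raw UMI counts per gene and barcode. Everything else was computed from these counts.

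Cells were kept by the study's limits on UMIs, genes, complexity and mitochondrial share. The limit on complexity listed for D0 (above 0.85) would have kept 1 barcode and was not applied, a choice made after the data were seen. Doublets were taken as deposited, and no doublet caller was run. Counts were summed per gene over the cells of a library or class and scaled to the total (CPM). Genes absent from 1 reference were left out of comparisons across all genes. Clusters came from 2000 variable genes, 30 principal components, 20 neighbours and Leiden resolution 0.5 (leidenalg 0.10.2). The OXPHOS, surrounding-list and mitochondrial ribosomal protein genes were left out of the variable genes, and cytoplasmic ribosomal protein genes were not. Clusters were named by scores over marker lists, with score limits for a name set after the data were seen.

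Members and lists were chosen with earlier results of these data known. Genes named in the text were taken from the 4 highest and the 4 lowest ratios of each comparison, the genes of complex II, paralogue sets such as the c subunit, the mitochondrial genes and the members below 10 CPM, apart from 1 gene whose own values are not reported here. Counts per complex, and named genes given in libraries or classes beyond their own comparison, were chosen after their values were seen. Alternatives were TMM factors (edgeR 4.0.16), the median of ratios, totals without mitochondrial or ribosomal protein genes, other filters on cells and genes, and Leiden resolution 1.0. The scripts were tested on simulated data. Promoters were matched by symbol to RefSeq (GRCh38.p14), and gene positions are from GENCODE 44.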

Additional observations from a re-analysis of the deposited data

Results flagged for a closer look

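The 13 mitochondrial genes differed in sign between the days of XAV939 treatment. Their summed log2 ratio of XAV939 over dual SMAD inhibition alone was 0.23 at D5 and -0.14 at D10, a difference of -0.37. All 13 genes stood above 0 at D5 and all 13 below 0 at D10. With 1 library per condition the difference was not tested. The nuclear OXPHOS genes gave -0.03 and -0.02 as summed log2 ratios at the same days.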

How the results depend on the processing

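With 1 library per condition, the depth limits the counting error only, and the spread between cultures was not measured. No paired analysis was possible because each condition has 1 library and no result comes from a test. "No filter on cells" was not run for the comparisons of cell classes. The stricter filter on cells kept those with at least 3000 UMIs and under 5% of UMIs on mitochondrial genes. It cuts on the mitochondrial share itself, so smaller mitochondrial sums and fewer mitochondrial calls under it are partly built in.

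For D5 over D0, TMM factors left 4 mitochondrial genes lower in place of 9, and the stricter filter on cells left 5. Of all genes, 19.6% and 23.9% were then lower. The total without mitochondrial and ribosomal protein genes left 4, with 2 nuclear genes higher and 10 lower. Of all genes, 26.7% were then higher and 18.5% lower. Without the filter on low levels 3 nuclear genes were higher. Counts without that filter, here and below, stand without a share of all genes, so they cannot be read against a background. For D10 over D5, TMM factors and the median of ratios each left 1 nuclear and 1 mitochondrial gene higher, with nuclear medians of -0.061 and -0.080 and summed nuclear ratios of -0.064 and -0.083. A mean of at least 100 CPM left 1 of each, where 8.20% of all genes at that level rose. No filter on low levels added 1 lower nuclear gene. For XAV939, no filter on low levels gave 2 lower nuclear genes at D5 and 1 higher and 1 lower at D10. The median of ratios turned the nuclear median at D10 to 0.023 and the summed ratio to 0.011.

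For D24 over D22, 18 nuclear genes rose and 2 fell with the median of ratios, where 18.3% of all genes rose and 21.6% fell. With the total without mitochondrial and ribosomal protein genes 7 rose, where 12.7% of all genes did. In Glut-like cells alone 3 rose and 2 fell, where 1.88% of all genes rose and 15.6% fell. There NDUFB8 was at -0.037 and SDHD at 0.11. A mean of at least 100 CPM left 2 falls, where 24.3% of all genes at that level fell. The stricter filter on cells left 2 mitochondrial rises. For D26 over D24, nuclear rises and falls were 0 and 22 with TMM factors, where 10.7% of all genes rose and 11.8% fell. They were 0 and 26 with the median of ratios, where 8.57% of all genes rose and 13% fell. With the total without mitochondrial and ribosomal protein genes they were 0 and 5, where 18.8% of all genes rose and 8.74% fell. The mitochondrial sum was -0.13 and -0.18 in the first 2 of these scalings. Rises were 5 without the filter on low levels and 1 at a mean of 100 CPM, where 12.4% of all genes at that level rose. Mitochondrial falls were 1 with the stricter filter on cells, 0 at a mean of 100 CPM and 1 in Glut-like cells alone.

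For PNP-like over NNP-like cells, nuclear genes called higher were 1 with TMM factors, 1 with the total of nuclear genes, 0 with the total without mitochondrial and ribosomal protein genes and 4 without the 5% of cells with most UMIs, and 2 were lower without the filter on low levels. For GnRH-GABA-like over Glut-like cells, the nuclear median was 0.050 with TMM factors and 0.052 with the median of ratios, and the summed ratio was -0.0011 with the stricter filter on cells. Another 273 counts of genes past 1.5-fold stayed within 1.5 times. Of the medians, sums and single ratios, 290 values moved without turning, for example the mitochondrial sum to 0.17 for D24 over D22 with the stricter filter on cells and to 0.01 for D26 over D24 with the total without mitochondrial and ribosomal protein genes. Of 398 values for 40 single-gene ratios past 1.5-fold, 2 changed sign, those of NDUFB8 and SDHD above, and 50 fell under 1.5-fold. Smaller ratios were not followed singly: from D24 to D26 those between 0 and 0.23 turn with TMM factors, such as SDHD (0.03), MT-ND2 (0.01) and MT-ND4 (0.19). The same limits on cells in the tagged libraries and Glut-like cells alone were added after the data were seen. The cause was not tested.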
